A study of Homo sapiens with 6 samples.

Results

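ADGRG1, ADGRG6, ADGRL1, ADGRL2, ADGRE5 and ADGRE2 are 6 genes of the adhesion G protein-coupled receptor (GPCR) family, and their transcripts were followed here in A549 cells, a human lung adenocarcinoma line, after knockdown of STAU1. The 6 were taken by symbol from a table of 30493 genes, and all 6 had 1 row there. They were chosen by a list of symbols drawn up with the counts and fold changes of this same comparison in view. Their differences between the groups are therefore given as a description, with no p-value. The data were 3 libraries labelled STAU1 knockdown, whose titles carry the prefix si, and 3 libraries labelled control plasmid, all of A549 cells. The labels give no dose, time or reagent sequence and do not say whether replicate libraries were grown as separate cultures. Errors and p-values therefore measure the scatter among these libraries alone, and that scatter may be technical. STAU1 encodes a double-stranded RNA-binding protein that acts in mRNA transport, translation and decay. The comparison asked which transcripts change in amount when it is depleted.

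Adhesion GPCRs carry a long extracellular part, built from adhesion modules, on a bundle of membrane-spanning helices. Most are cut by their own GAIN domain at a short site next to the membrane, and the 2 pieces stay together until the outer one is pulled away. The new end of the inner piece then works as a tethered agonist that switches on G proteins. ADGRG1, also called GPR56, is known for cortical development and melanoma biology. ADGRG6 is known for myelination by Schwann cells and can raise cyclic AMP. ADGRL1 and ADGRL2 are latrophilins, known from synapses, and ADGRE5 (CD97) and ADGRE2 (EMR2) are best known from leukocytes, though ADGRE5 is also found in many carcinomas.

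Most of the family share a site of self-cleavage. Its coding sequence is shown for each of the 6 receptors, from the GENCODE 29 transcript with the longest complete reading frame. Each line has 57 bases, 5′ to 3′ on the coding strand. Capitals mark the 3 codons around the cut, which falls between the second and the third of them.
ADGRG1: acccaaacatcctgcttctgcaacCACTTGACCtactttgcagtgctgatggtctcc
ADGRG6: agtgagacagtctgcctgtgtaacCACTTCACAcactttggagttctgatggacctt
ADGRL1: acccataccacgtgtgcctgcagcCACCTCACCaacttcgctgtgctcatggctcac
ADGRL2: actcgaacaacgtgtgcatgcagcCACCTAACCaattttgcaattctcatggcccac
ADGRE5: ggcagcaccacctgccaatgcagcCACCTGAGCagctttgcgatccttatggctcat
ADGRE2: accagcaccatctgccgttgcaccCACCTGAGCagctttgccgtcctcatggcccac
Sites were found by searching each reading frame for a histidine codon, any codon, a threonine or serine codon, any codon and a phenylalanine codon. A cysteine codon shortly before the histidine was also required. The histidine and the threonine or serine of the capitals were thus set by the search. The histidine codon CAC, which all 6 have, was not. The middle codon is a leucine codon in 5 of them, while ADGRG6 has TTC, a phenylalanine codon. The windows of ADGRE2 and ADGRE5 were identical at 46 of 57 positions and those of ADGRL1 and ADGRL2 at 45, against 39 for ADGRG1 and ADGRG6. Pairs from different groups of the family reached up to 40, for ADGRE2 and ADGRL1, so the G pair was no more alike than those. Bases set by the search add to the count of every pair. On GRCh38 the marked bases lie at chr16:57656591-57656599 (plus strand, exon 9 of 14) in ADGRG1 and at chr6:142411385-142411393 (plus strand, exon 18 of 25) in ADGRG6. They lie at chr19:14157915-14157923 (minus strand, exon 14 of 24) in ADGRL1 and at chr1:81968155-81968163 (plus strand, exon 16 of 26) in ADGRL2. In ADGRE5 they lie at chr19:14404518-14404526 (plus strand, exon 13 of 20) and in ADGRE2 at chr19:14754990-14754998 (minus strand, exon 13 of 20).

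Total counts ran between 30354219 and 35431441 in knockdown libraries and between 31458569 and 32832268 in controls, and 17089 genes had enough counts to be tested. STAU1 itself had 16.02, 15.7 and 14.6 CPM (counts scaled to library size with TMM factors) in knockdown libraries, against 120.5, 124.5 and 117 CPM in controls. Over all genes 44.2% were called in either direction at an adjusted p under 0.05 (edgeR quasi-likelihood F test, Benjamini-Hochberg adjusted), with 22.2% higher and 22.0% lower in knockdown libraries. Of these calls 50.3% were higher, but 69.5% with total-count scaling and 77.3% and 77.2% on the log2(FPKM + 1) and log2(FPKM + 0.1) scales. Epithelial markers were abundant, with EPCAM, CDH1 and the keratins KRT7, KRT8, KRT18 and KRT19 summing to between 7549 and 7778 CPM in knockdown libraries and between 10280 and 10360 CPM in controls. The members went both ways: KRT7, KRT8 and KRT18, which carry most of the sum, fell by 0.60, 0.39 and 0.45 on the log2 scale, EPCAM rose by 0.22, CDH1 rose by 0.50 and KRT19 was not called.

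ADGRG1 was the most abundant of the 6 and stood at about double its control level in knockdown libraries. It had 6174, 6281 and 7524 counts in the knockdown libraries and 3168, 3114 and 3111 counts in the controls. On the CPM scale this was 197, 197 and 208 in knockdown libraries, against 102, 102 and 97.7 in controls. The groups lie far apart, and the 3 libraries of each group lie close together. In such bulk libraries more cells with a transcript and more of it per cell cannot be told apart. The mean was 201 ± 6.43 CPM in knockdown libraries and 100.5 ± 2.47 CPM in controls (SD, n = 3 each), a fitted log2 fold change, knockdown minus control, of 1.00 (SE 0.03). Without any one library the log2 fold change stayed between 0.97 and 1.01. Of the 17089 genes tested, 195 had a larger fitted log2 fold change, and 1.12% of the genes were called and at least 2-fold higher. ADGRG1, at a fitted 1.999-fold, fell just short of that 2-fold rule. Most of those 195 were scarcer transcripts. Among the 1570 genes with at least as much CPM in controls as ADGRG1, only GANAB, the glucosidase II catalytic subunit gene, with 1.14, and the tropomyosin gene TPM4, with 1.32, had a larger log2 fold change. Both were looked up after their values were seen. ADGRG1 was listed with this comparison known, and the cut was its own control level, so nothing is read from its rank.

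**Figure D1:**
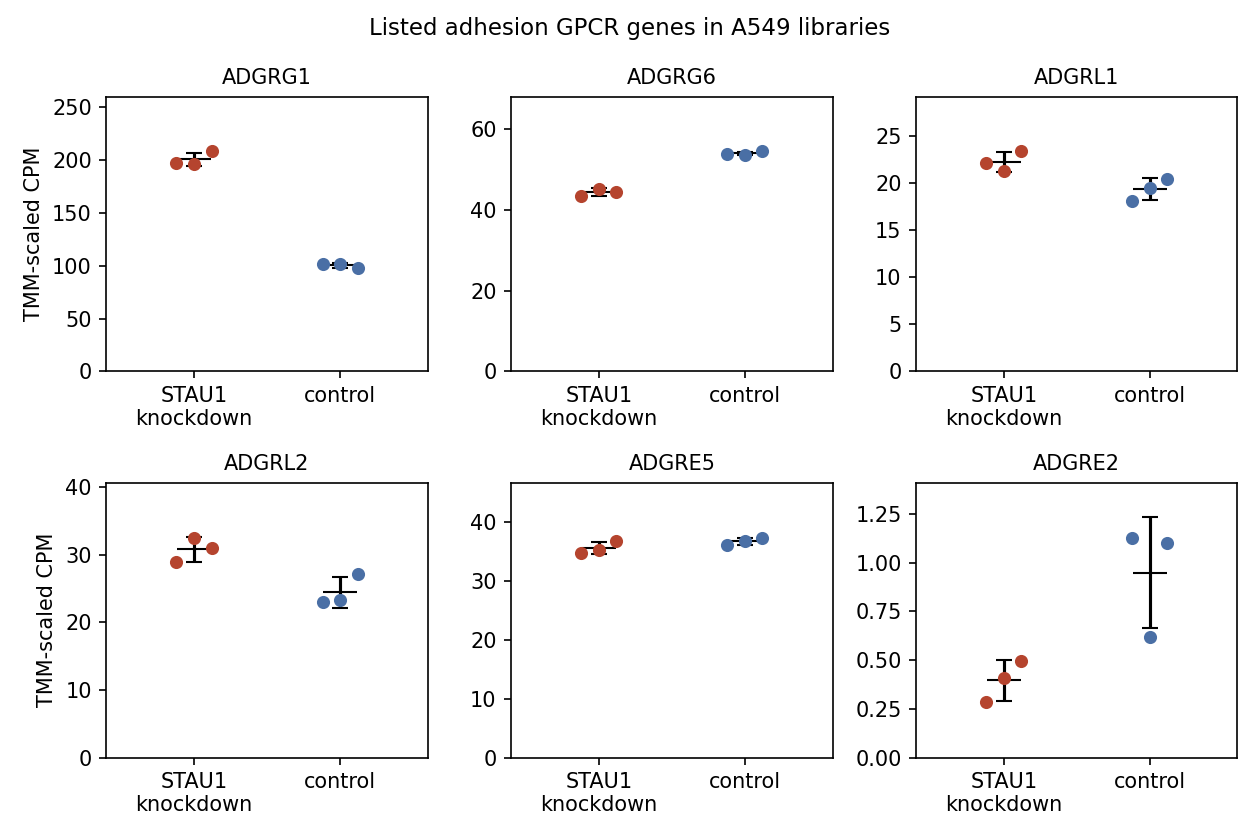
TMM-scaled CPM of the 6 listed receptor genes in each of the 3 STAU1 knockdown and 3 control libraries (points), with the mean and SD (black). ADGRG1 lies between 197 and 208 CPM in knockdown libraries and between 97.7 and 102 CPM in controls, and ADGRE5 is the one gene of the 6 whose groups overlap.

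Of the 6 receptors 3 were called higher (ADGRG1, ADGRL2 and ADGRL1) and 2 lower (ADGRG6 and ADGRE2), beside 44.2% of all genes called in either direction. The groups did not overlap in 5 of the 6, beside 51.4% of all genes tested. Nothing is read from either count, since the 6 were listed with this comparison known. The median log2 fold change of the 6 was 0.08, and that of all genes tested was -0.00036.

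ADGRG6, whose product binds type IV collagen, laminin-211 and the prion protein, was lower in knockdown libraries. It had 43.3, 45.3 and 44.4 CPM there, against 53.9, 53.6 and 54.4 CPM in controls. All 3 knockdown libraries lay below all 3 controls, and the spread within each group was small beside the gap. The means were 44.35 ± 0.969 CPM in knockdown libraries and 54.0 ± 0.441 CPM in controls (SD, n = 3 each), with a log2 fold change of -0.28 (SE 0.04), or -0.14 and -0.17 on the log2(FPKM + 1) and log2(FPKM + 0.1) scales. ADGRG1 and ADGRG6 thus stood on opposite sides of their controls, although both belong to the G group of the family.

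The latrophilins ADGRL1 and ADGRL2, receptors for teneurins and FLRT proteins, were both higher in knockdown libraries, by less than ADGRG1. ADGRL1 had 22.2, 21.2 and 23.4 CPM in knockdown libraries, against 18.1, 19.5 and 20.4 CPM in controls. The lowest knockdown library was only just above the highest control. Its log2 fold change was 0.20 (SE 0.06). ADGRL2 had 28.9, 32.5 and 31.0 CPM in knockdown libraries, against 23.05, 23.3 and 27.1 CPM in controls. Control replicate 3 was nearer to the knockdown libraries than to the other controls, and the groups still did not overlap. The log2 fold change of ADGRL2 was 0.33 (SE 0.06), and 0.41 without control replicate 3. ADGRL1 overlaps the antisense RNA gene ADGRL1-AS1, which had only 14, 7 and 21 counts in knockdown libraries and 10, 27 and 18 in controls.

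ADGRE5, whose ligands include CD55 and THY1, had nearly the same level in both groups. It had 34.8, 35.4 and 36.8 CPM in knockdown libraries, against 36.2, 36.8 and 37.4 CPM in controls, and the groups overlapped. The fitted log2 fold change was -0.04 (SE 0.04). Its sign depended on the scaling, at 0.03 with total-count scaling and 0.05 and 0.06 on the 2 FPKM scales. ADGRE2, a receptor for dermatan sulfate, was by far the scarcest of the 6. It had 9, 13 and 18 counts in knockdown libraries, against 35, 19 and 35 counts in controls, or 0.288, 0.407 and 0.498 CPM against 1.13, 0.621 and 1.10 CPM. The highest knockdown library lay just below the lowest control. Over each group the counts summed to 40 in knockdown libraries and 89 in controls, a depth-scaled ratio of 0.423 with an exact binomial 95% interval of 0.284 to 0.621, which covers counting error only. The fitted log2 fold change was -1.24 (SE 0.32), and leaving out any one library gave -1.46 to -1.05. When 1 CPM in 3 libraries was required, ADGRE2 was not tested, so its value rests on counts below that level.

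ADGRE2 and ADGRE5 cannot be fully separated by short reads. In their coding sequences they share an identical run of 355 bases, and its first 150 bases, the length of 1 read here, are shown because a read from this stretch fits both genes equally.
ADGRE2 and ADGRE5: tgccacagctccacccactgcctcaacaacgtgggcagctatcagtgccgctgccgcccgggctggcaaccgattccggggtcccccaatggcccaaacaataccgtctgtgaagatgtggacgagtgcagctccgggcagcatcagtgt
The stretch lies in exons 6 and 7 of 20 in both transcripts, within chr19:14765770-14766349 (minus strand) in ADGRE2 and chr19:14397109-14397692 (plus strand) in ADGRE5 on GRCh38. Of the 3079 words of 50 bases in the ADGRE2 transcript 16.2% occur in transcripts of other genes, 418 of them in ADGRE5 and 42 in ADGRE3. For ADGRE5 the share was 18.3% of 3139 words, of which 156 lie in the antisense RNA gene CTC-548K16.5 (AC008569.1 in GENCODE 29). The share was 2.93% for ADGRL1 and 0 for ADGRG1, ADGRG6 and ADGRL2. These are shares of words and not of reads, which were paired and longer. How reads that fit both ADGRE2 and ADGRE5 were counted is not stated in the labels. The level of the scarce ADGRE2 is therefore uncertain beside that of ADGRE5. ADGRE2 also overlaps ZNF333 on the opposite strand, a zinc finger gene with 3.47 ± 0.106 CPM in knockdown libraries and 3.27 ± 0.249 CPM in controls (SD, n = 3 each). The libraries were directional per the labels, but whether counting used the strand is not stated.

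Because ADGRE2 and ADGRE5 are best known from leukocytes, markers of immune cells were checked. Of 7 markers 5 had rows in the table, and PTPRC and CD3E had none. The summed level was between 17.4 and 20.3 CPM in knockdown libraries and between 14.4 and 15.6 CPM in controls. CD14 made up most of it, with 15.9 ± 1.251 CPM in knockdown libraries and 12.75 ± 0.329 CPM in controls (SD, n = 3 each), while CSF1R had at most 1 count in any library. The part of immune transcripts in the ADGRE2 values was not tested.

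Levels of the 6 genes were compared per gene length, on the authors' FPKM scale. The order was ADGRG1, ADGRE5, ADGRG6, ADGRL1, ADGRL2 and ADGRE2 in both groups, and the ranges of all 5 neighbouring pairs were apart in each group. In knockdown libraries ADGRG1 had a level of 18.99 to 20.8 FPKM, ADGRE5 of 5.61 to 6.17 FPKM, ADGRG6 of 4.43 to 4.73 FPKM, ADGRL1 of 2.19 to 2.48 FPKM, ADGRL2 of 1.11 to 1.26 FPKM and ADGRE2 of 0.03 to 0.05 FPKM. In controls these levels were 8.89 to 9.25 FPKM for ADGRG1, 5.50 to 5.70 FPKM for ADGRE5, 5.13 to 5.27 FPKM for ADGRG6, 1.74 to 1.98 FPKM for ADGRL1, 0.83 to 0.98 FPKM for ADGRL2 and 0.06 to 0.11 FPKM for ADGRE2. ADGRE5 and ADGRG6 are the closest pair in controls and lie further apart in knockdown libraries. ADGRG1 alone made up 38.0%, 37.5% and 38.8% of the summed FPKM of the 28 family members with an FPKM value in knockdown libraries, against 23.0%, 23.3% and 22.4% in controls. The other 27 members together summed to 31.0, 31.8 and 32.9 FPKM in knockdown libraries and 31.0, 30.3 and 30.7 FPKM in controls. The FPKM scale itself ran higher in knockdown libraries, with a median log2 fold change over all genes tested of 0.096 on log2(FPKM + 0.1). These sums are not corrected for that.

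Of the other 26 family members 23 had a row in the table and 16 were tested. Among these 4 rose (ADGRG2, ADGRG5, ADGRL3 and ADGRF4), 1 fell (ADGRE1) and 11 were not called, beside 22.2% of all genes higher and 22.0% lower. The median log2 fold change of the 16 was 0.0014, beside -0.00036 for all genes tested. ADGRE1, the human relative of the mouse macrophage antigen F4/80, had 8.35, 8.14 and 8.19 CPM in knockdown libraries, against 13.9, 14.7 and 15.2 CPM in controls. Its groups were well apart, with a log2 fold change of -0.83 (SE 0.07, adjusted p = 1.5e-13 by edgeR quasi-likelihood). Like ADGRE2 it was thus lower in knockdown libraries, while ADGRE5 was not called.

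ADGRG2, a receptor of the male reproductive tract, had 22.6, 23.2 and 20.4 CPM in knockdown libraries, against 17.6, 15.3 and 15.0 CPM in controls. Its log2 fold change was 0.47 (SE 0.06, adjusted p = 2.2e-08 by edgeR quasi-likelihood), with no overlap of the groups. The third latrophilin gene, ADGRL3, rose by 0.39 (SE 0.12), with 5.15, 5.98 and 5.70 CPM in knockdown libraries, against 4.61, 3.50 and 4.74 CPM in controls. ADGRL1 and ADGRL2 were higher too, but they were listed with this comparison known, so nothing is read from the 3 together. The call for ADGRL3 (adjusted p = 0.0052 by edgeR quasi-likelihood) was lost without control replicate 2 (adjusted p = 0.0852). ADGRF4 rose by 0.29 (SE 0.08, adjusted p = 0.0037 by edgeR quasi-likelihood), and its call was lost without control replicate 3 (adjusted p = 0.0559). The planar polarity cadherins CELSR1, CELSR2 and CELSR3 were not called, at 0.03, -0.12 and -0.10. CELSR1 had 69.0 ± 2.06 CPM in knockdown libraries and 67.6 ± 3.10 CPM in controls (SD, n = 3 each).

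**Figure D2:**
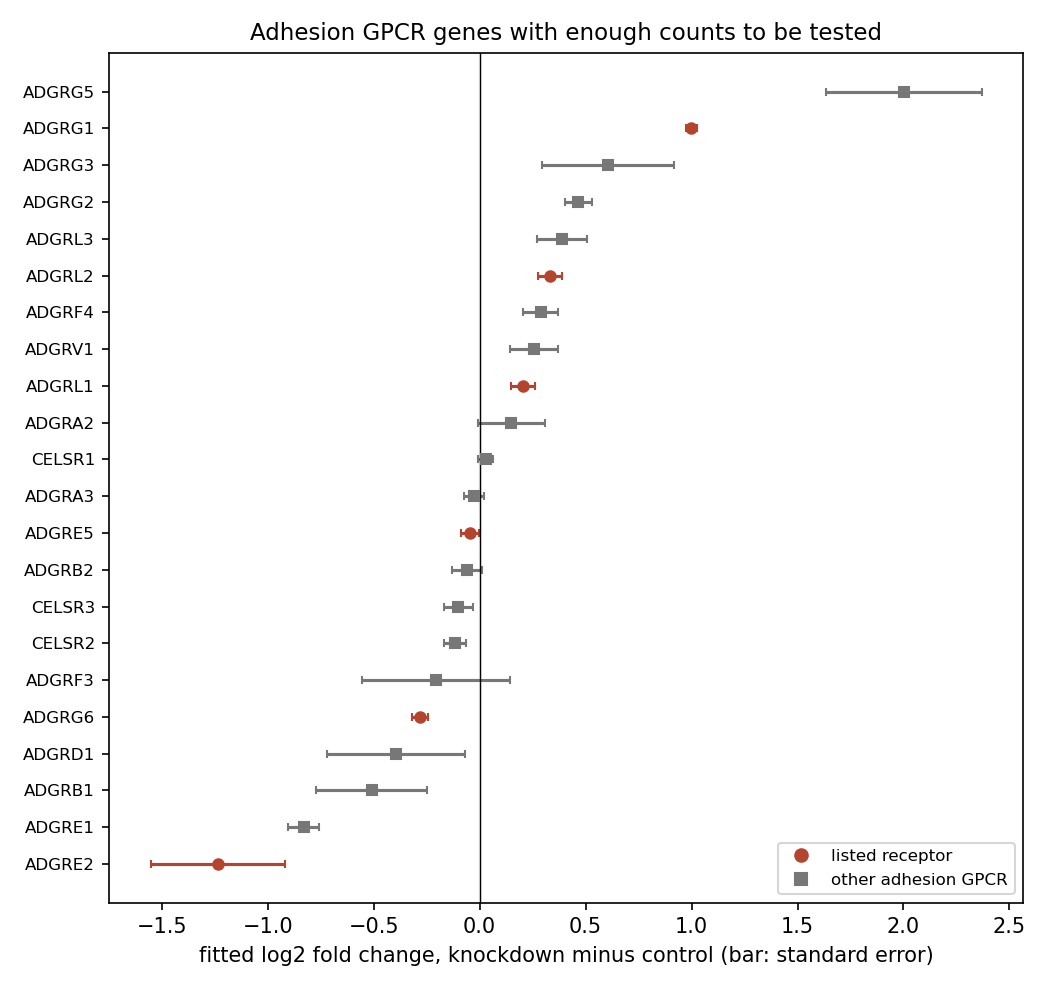
Fitted log2 fold change (knockdown minus control, horizontal axis) of the 22 adhesion GPCR genes with enough counts to be tested, with the standard error as a bar. Circles are the 6 listed receptors and squares the other 16, and ADGRG5 at 2.002 and ADGRE2 at -1.24 stand at the ends with wide errors, while ADGRG1 at 1.00 has a narrow one.

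ADGRG1 lies between 2 relatives on chromosome 16, and the 3 genes run in the same direction. On GRCh38 in GENCODE 29 ADGRG1 spans 57610652 to 57665580 on the plus strand, ADGRG5 ends 18971 bases before it and ADGRG3 begins 2607 bases after it. ADGRG5, an orphan receptor known from leukocytes, had 40, 27 and 23 counts in knockdown libraries, against 8, 5 and 8 counts in controls. The knockdown libraries varied among themselves, and all 3 were above every control. The log2 fold change was 2.002 (SE 0.37, adjusted p = 1.1e-05 by edgeR quasi-likelihood), and the ratio of summed counts was 4.03, with an exact binomial 95% interval of 2.49 to 6.83 for counting error. ADGRG3 had 27, 26 and 23 counts in knockdown libraries, against 21, 15 and 11 counts in controls. Scaled for depth the groups overlapped, and the log2 fold change of 0.60 (SE 0.31) was not called (adjusted p = 0.113 by edgeR quasi-likelihood), though it was on the log2(FPKM + 1) and log2(FPKM + 0.1) scales (adjusted p = 0.0373 and 0.0391 in limma). Per length both neighbours were scarce, at 0.10 to 0.23 FPKM in knockdown libraries and 0.02 to 0.17 FPKM in controls. An antisense gene within ADGRG1, RP11-405F3.5, had 0 counts in the knockdown libraries and 1 in the controls.

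**Figure D3:**
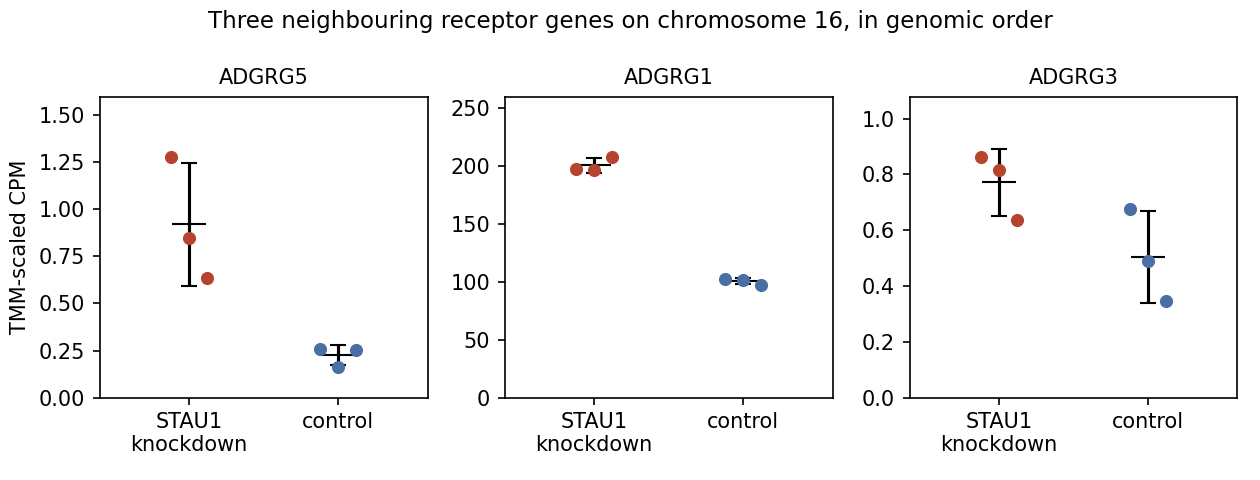
TMM-scaled CPM of ADGRG5, ADGRG1 and ADGRG3, in their order on chromosome 16, in 3 knockdown and 3 control libraries, with the mean and SD; each panel has its own axis. ADGRG5 and ADGRG1 have no overlap between the groups, and ADGRG3 does.

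Next to ADGRE5, which was not called, lay a gene that was. DDX39A, an RNA helicase gene that lies tail to tail with ADGRE5 on the opposite strand, its 3′ end 94 bases away, was lower, with 75.3 ± 2.38 CPM in knockdown libraries and 92.8 ± 1.02 CPM in controls (SD, n = 3 each, log2 fold change -0.30, SE 0.03, adjusted p = 1.7e-11 by edgeR quasi-likelihood).

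Most tested genes for ligands of these receptors were higher in knockdown libraries. Of 22 listed ligand genes 21 had a row and 16 were tested, 14 of them rose, 0 fell and 2 were not called, beside 22.2% of all genes higher. The list's median log2 fold change was 0.45, beside -0.00036 for all genes tested. The 6 type IV collagen genes, basement membrane components of which ADGRG6 is a receptor, all rose. COL4A4 had 41.5, 41.75 and 43.1 CPM in knockdown libraries, against 24.01, 25.3 and 23.9 CPM in controls (log2 fold change 0.79, SE 0.04), and COL4A3 rose by 0.71 (SE 0.06). FLRT3, a ligand of latrophilins, had 53.2, 53.75 and 54.9 CPM in knockdown libraries, against 33.8, 32.2 and 30.9 CPM in controls (0.74, SE 0.04). TGM2, the tissue transglutaminase reported as an ADGRG1 ligand, had 676 ± 7.14 CPM in knockdown libraries and 560.5 ± 4.50 CPM in controls (SD, n = 3 each, 0.27, SE 0.02). The adjusted p of these 4 lay between 2.4e-20 and 9.1e-15 by edgeR quasi-likelihood, the smallest of the list, for which they were named. This list and those that follow were drawn up with earlier results of these data known. The count of 14 and these p-values are therefore a description only.

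COL3A1, the type III collagen gene and the ligand of ADGRG1 in brain, was barely detected. It had 2, 15 and 15 counts in knockdown libraries, against 3, 12 and 3 counts in controls, and was not called. Among the ligands of ADGRE5, CD55 rose by 0.26 (SE 0.03) and THY1 by 0.50 (SE 0.12). Since several ligands are matrix genes, stromal and endothelial markers were read beside them. Their summed level was 23.4 to 24.9 CPM in knockdown libraries and 11.6 to 11.99 CPM in controls. Of 7 such markers 4 were tested and 3 of these rose, beside 22.2% of all genes, with COL1A1 and LUM making up most of the sum, while DCN, PDGFRB and VWF had 9 counts or fewer in every library. Their part in the ligand values was not tested.

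Membrane partners of the receptors went both ways. Of 8 genes 1 rose, 4 fell and the other 3 did not pass the test (list median -0.08), beside 22.2% of all genes higher and 22.0% lower. The split depended on the scaling: 3 rose and 2 fell with total-count scaling, and 3 rose and 1 fell on either FPKM scale. The tetraspanin gene CD9, whose product associates with ADGRG1, had 110 ± 3.24 CPM in knockdown libraries and 125 ± 4.93 CPM in controls (SD, n = 3 each, log2 fold change -0.19, SE 0.03), a call lost on both FPKM scales (adjusted p = 0.131 and 0.130 in limma). Its relative CD81, also a partner of ADGRG1, was not called, at 0.02 (SE 0.02). The integrin subunit gene ITGB1 fell by 0.26 (SE 0.03), and ITGAV had -0.11, a call lost with total-count scaling (adjusted p = 0.289 by edgeR quasi-likelihood) and on both FPKM scales (adjusted p = 0.993 and 0.991 in limma). LRP1, the endocytic lipoprotein receptor gene, rose by 0.45 (SE 0.05).

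In the Gs and cyclic AMP arm, through which ADGRG6 can signal, most differences were small. Of its 16 genes 12 were tested, 7 rose, 1 fell and the other 4 did not pass the test (list median 0.11), beside 22.2% of all genes higher and 22.0% lower. Without control replicate 1 only 5 genes of that arm were called. The adenylyl cyclase gene ADCY9 rose by 0.38 (SE 0.07), and the regulatory subunits of protein kinase A PRKAR1A and PRKAR2A by 0.21 (SE 0.02) and 0.23 (SE 0.04). GNAS, the stimulatory G protein gene, rose by 0.10 (SE 0.02). The scarce cyclase gene ADCY5 stood apart, with 44, 29 and 48 counts in knockdown libraries, against 18, 15 and 21 counts in controls (log2 fold change 1.07, SE 0.27).

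Of 7 arrestin and receptor kinase genes 4 rose and the other 3 did not pass the test (list median 0.19), beside 22.2% of all genes higher. These proteins switch off and internalise active GPCRs. ARRB1 had 73.1, 74.3 and 81.7 CPM in knockdown libraries, against 55.3, 50.6 and 52.7 CPM in controls (log2 fold change 0.53, SE 0.04). ARRB2 rose by 0.34 (SE 0.03) and the kinase gene GRK3 by 0.30 (SE 0.07). GRK5, at 0.19 (SE 0.08), was called with an adjusted p of 0.0449 by edgeR quasi-likelihood, and the call was lost with DESeq2 (adjusted p = 0.155), with no filter on low counts (0.0628) and without knockdown replicate 1 (0.269), control replicate 1 (0.143) or control replicate 2 (0.167).

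Genes for the synthesis of dermatan sulfate, the glycan that ADGRE2 binds, were listed as well. Of 11 genes 10 were tested, 5 rose, 1 fell and the other 4 did not pass the test (list median 0.11), beside 22.2% of all genes higher and 22.0% lower. CHST14 and DSE, a sulfotransferase and an epimerase that make dermatan from chondroitin sulfate, rose by 0.88 (SE 0.08) and 0.81 (SE 0.10). CHST14 had 12.3, 11.75 and 12.8 CPM in knockdown libraries, against 6.64, 6.01 and 7.38 CPM in controls. The sulfotransferase gene UST rose by 0.83 (SE 0.08) and the chain-starting enzyme gene CSGALNACT1 by 0.39 (SE 0.03). The knockdown and control libraries did not overlap for any of these 4 genes, beside 51.4% of all genes tested. Nothing is read from that, since the 4 were named for the smallest adjusted p of the list. CHPF was the gene that fell, at -0.31 (SE 0.07). DSEL, the other epimerase gene of the list, was not called, at 0.01 (SE 0.16).

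**Figure D4:**
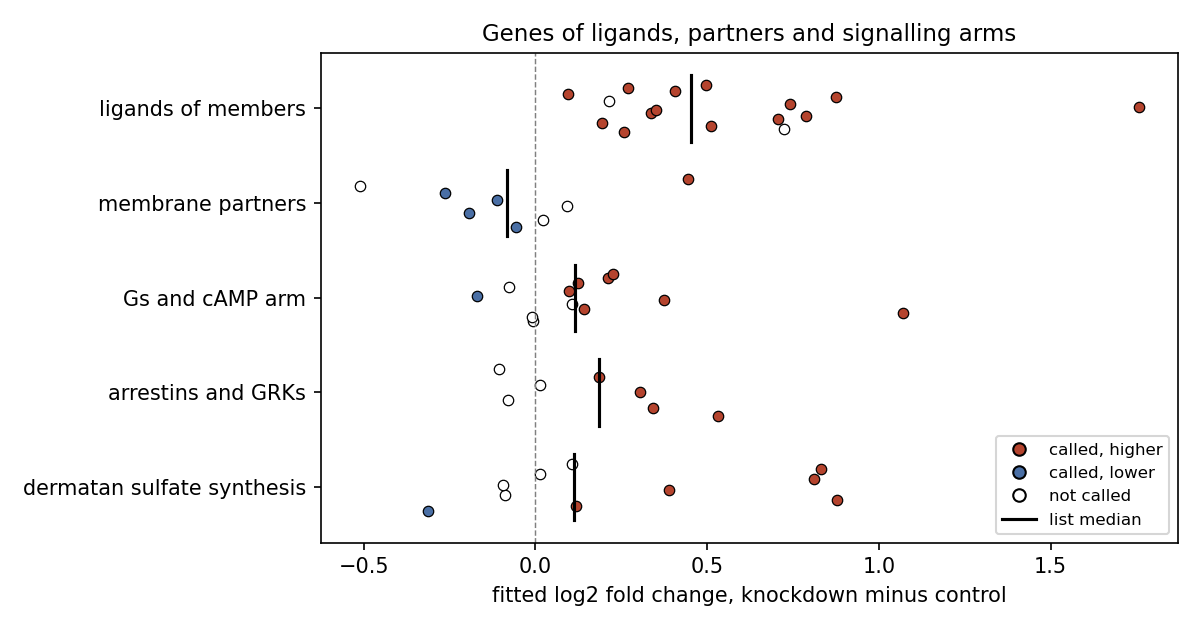
Fitted log2 fold change (knockdown minus control) of the tested genes of 5 lists: ligands, membrane partners, the Gs and cyclic AMP arm, arrestins and receptor kinases, and dermatan sulfate synthesis. Filled points were called and open points were not, and the bar is the list median, which is 0.45 for the ligands and -0.08 for the membrane partners.

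The genes whose levels ran most like ADGRG1 over the 6 libraries included MESD, PELI2, TM4SF20 and FOXP4. Likeness was the Euclidean distance between log2 CPM profiles, each centred on its own mean, over 10106 genes whose log2 CPM averaged 3 or more. The distance was 0.067 for MESD, a chaperone gene for lipoprotein receptors. MESD had 116, 114 and 118 CPM in knockdown libraries, against 57.1, 56.7 and 56.4 CPM in controls. That its groups were far apart, like those of ADGRG1, follows from how it was picked. The distances of PELI2, TM4SF20 and FOXP4 were 0.112, 0.118 and 0.122. Of the tested family members, taken without that limit on level, ADGRG2 was nearest, at 0.695, and ADGRE2 farthest, at 2.71. ADGRE2 lies well below the limit, so its distance also carries the scatter of low counts.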

How the data were processed

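Both deposited tables cover the same 6 libraries: whole-number read counts per gene, and FPKM values (counts scaled to gene length and depth) that the authors gave to 2 decimals. GRCh38, HISAT2 and DESeq2 appear in the submitters' processing notes with no role, order or version. The counting tool, its strand setting and its annotation are not stated in the labels. Per the labels' protocols the libraries were directional and read as paired ends of 150 nt.

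filterByExpr (minimum count 10) left 17089 genes. These were fitted in edgeR 4.0.16 (R 4.3.3, limma 3.58.1) with TMM scaling and a robust quasi-likelihood F test, adjusted by Benjamini-Hochberg, and calls had an adjusted p under 0.05. The SE is |log2 fold change| / √F. Likeness used log2 CPM with a prior count of 2. The script was tested on simulated data. Replicates differed beyond sampling noise (chi-square over its degrees of freedom 1.78 to 2.88).

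The members and lists were chosen with earlier results of these data known. The text names the 6 receptors, STAU1, called family members, the 4 called genes of each list with the smallest adjusted p, genes next to ADGRG1, ADGRE5 and ADGRE2, and the 5 genes most like ADGRG1 (the second in rank, and 1 partner list, are not reported here); other genes were named after their values were seen. Identifiers were matched to GENCODE 29 (GRCh38) without their version, 29556 of 30493. Alternatives were RLE, upper-quartile and total-count scaling, other filters, DESeq2 1.42.0, limma on log2(FPKM + 1) and log2(FPKM + 0.1), the replicate number as a block, and leaving out single libraries.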

Additional observations from a re-analysis of the deposited data

How the results depend on the processing

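Over 16 main results 205 of 217 alternative values stayed near the reported one. Only the fold changes of called receptors could reverse a direction, and none did, since the other main results are counts without a sign. Such a count can stay near while its split moves. The membrane partners had 1 higher and 4 lower calls as reported, but 3 and 1 on either FPKM scale. The 6 receptors gave 3 higher and 2 lower calls under each alternative, with 2 exceptions. These were 3 and 1 with log2(FPKM + 1) and with the 1 CPM filter, under which ADGRE2 was not tested. With total-count scaling the log2 fold changes were 1.08 for ADGRG1, -0.21 for ADGRG6 and 0.032 for ADGRE5. With log2(FPKM + 1) they were -0.14 for ADGRG6, 0.054 for ADGRE5 and -0.068 for ADGRE2, and with log2(FPKM + 0.1) 1.10 for ADGRG1, -0.17 for ADGRG6, 0.30 for ADGRL1, 0.063 for ADGRE5 and -0.43 for ADGRE2. ADGRE2 had 0.03 to 0.11 FPKM, so a pseudocount of 1 or 0.1 shrinks its fold by construction. The cause of the other shifts was not tested. Leaving out 1 library at a time gave 0.97 to 1.01 for ADGRG1, -0.30 to -0.26 for ADGRG6, 0.16 to 0.25 for ADGRL1, 0.29 to 0.41 for ADGRL2, -0.07 to -0.03 for ADGRE5 and -1.46 to -1.05 for ADGRE2. The number of called genes of the Gs and cyclic AMP arm ran from 5 to 9, and that over all genes from 6779 to 7106, against 7560 with all libraries. Same-numbered libraries of the 2 groups correlated in their deviations from the group means by only 0.068, 0.037 and 0.146, and not every library correlated best with its own number, so the numbers were not taken as pairs; with the replicate block 7665 genes were called and ADGRG1 had a log2 fold change of 1.00. Of 38 other named genes 32 kept their call under every alternative that tested them; ADGRG5 and ADGRG3 were not tested with the 1 CPM filter. Depth limits ADGRE2, ADGRG5 and ADGRG3, with at most 40 counts per library.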
